A study of Mus musculus with 16 samples.

Results

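The HoxB cluster of mouse chromosome 11 was covered by 6 of the 102957 consensus H3K27me3 peaks of the series. They were chosen by position, as all consensus peaks between 96161307 and 96387596 (mm10), and together covered 206.683 kb of the 226.289 kb between these ends (91.34%). The choice also named a peak over the long non-coding RNA gene Gm53, whose higher H3K27me3 in KO lines was already known from earlier work on these data, so that this difference is described here and is no independent support.

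The Hoxb genes encode homeodomain transcription factors that give cells their position along the head-to-tail axis, and they lie on the chromosome in the order in which they act along it, from Hoxb1 at the front to Hoxb13 at the back. In embryonic stem cells these genes are held silent, and the whole cluster is known to carry H3K27me3, the trimethyl mark on lysine 27 of histone H3 that Polycomb repressive complex 2 writes. The cluster also holds microRNA genes, among them Mir196a-1 and Mir10a, whose products are known to act on Hox messages.

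The cells were mouse embryonic stem cells kept on gelatin in medium that held serum, LIF and inhibitors of MEK (PD0325901) and GSK3 (CHIR99021), and H3K27me3-bound and input DNA of each were sequenced. The labels gave 4 lines: wild-type cells (WT control), wild-type cells with doxycycline-inducible Firre, a long non-coding RNA (WT transgene), Firre knockout cells (KO control), and Firre knockout cells with inducible Firre (KO transgene). Each line was taken at 0 h and 48 h of doxycycline, with 1 H3K27me3 and 1 input library per line and time, which made 8 conditions and 16 libraries. The labels name no clone, passage or separate culture, so a difference between lines cannot be told apart from a difference between clones. Permutation p-values measure only the spread between these libraries, which may be technical. The edgeR p-values and SE rest mostly on read depth and a spread shared over all peaks (prior degrees of freedom from 132 to infinite), and little on a peak's own libraries.

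Total counts over the consensus peaks were 10380781 to 14787938 in H3K27me3 and 3340654 to 6244333 in input, lowest in the KO control libraries at 0 h. Input over the Firre peak, per width and relative to the mean chromosome X peak, was 11.1 for the line labelled KO control, though a knockout without transgene should hold no copy of the gene. The transgene lines had 14.9 (WT) and 10.7 (KO), and WT control had 0.694. Directions between KO and WT lines therefore rest in part on a line whose label is in doubt, and the KO minus WT differences of the HoxB peaks and clusters are also given without it. Peaks of chromosome 11 took 8.25% to 8.44% of input counts in the WT lines, 11.1% in the line labelled KO control, and 9.97% in KO transgene. Of 10 genes that mark embryonic stem cells, 2 (Esrrb and Lin28a) had a consensus peak within 2 kb. All 10 Hoxb genes had one, but the peaks were chosen to cover their cluster, so this is no comparison. The share over all genes is not given here.

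Sequences of microRNAs and promoters in the cluster were read from RefSeq (GRCm38.p6, the assembly of mm10), which are shown because the peaks end at or lie over them. The mature microRNAs are printed with their seed (bases 2 to 8) in capitals, and the seeds differ. Mature miR-196a-5p begins 6 bases past the end of the peak at 96262540-96265181, and miR-10a-5p lies inside the peak that covers Hoxb1 to Hoxb9.
miR-196a-5p (chr11:96265187-96265208, + strand): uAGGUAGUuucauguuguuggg
miR-10a-5p (chr11:96317186-96317208, + strand): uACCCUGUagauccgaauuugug

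Promoter entries were found for 3 of the 10 Hoxb genes, all under the peak that covers Hoxb1 to Hoxb9, and the 250 bases before each start are printed with CG dinucleotides in capitals.
Hoxb8 (chr11:96281655-96281904, + strand): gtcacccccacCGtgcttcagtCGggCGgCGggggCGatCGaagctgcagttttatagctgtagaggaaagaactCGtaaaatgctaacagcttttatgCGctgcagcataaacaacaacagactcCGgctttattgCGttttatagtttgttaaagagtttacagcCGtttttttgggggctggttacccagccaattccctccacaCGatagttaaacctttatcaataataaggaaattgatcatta
Hoxb4 (chr11:96318017-96318266, + strand): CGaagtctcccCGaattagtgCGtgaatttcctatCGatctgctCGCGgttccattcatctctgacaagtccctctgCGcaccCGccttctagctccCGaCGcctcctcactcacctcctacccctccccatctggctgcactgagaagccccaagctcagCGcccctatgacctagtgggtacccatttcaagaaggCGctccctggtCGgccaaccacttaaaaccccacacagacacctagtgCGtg
Hoxb1 (chr11:96365508-96365757, + strand): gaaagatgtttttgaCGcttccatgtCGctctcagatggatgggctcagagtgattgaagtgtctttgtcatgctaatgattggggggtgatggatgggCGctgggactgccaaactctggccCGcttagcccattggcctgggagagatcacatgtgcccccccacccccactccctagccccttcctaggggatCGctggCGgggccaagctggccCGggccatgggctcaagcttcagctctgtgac

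Over 300 bases (250 before and 50 after the start), the Hoxb8 promoter held 13 CG, Hoxb4 14 and Hoxb1 10, against a median of 7 over 32851 promoters. The observed over expected CG ratio was 0.970 at Hoxb8, 0.593 at Hoxb4 and 0.380 at Hoxb1, and the median promoter had 0.384. GC content was 42.3% at Hoxb8, 58.0% at Hoxb4 and 59.3% at Hoxb1. Thus Hoxb8 combined the lowest GC content of the 3 with the highest CG ratio, while Hoxb1 was at the ratio of the median promoter. On both strands, TATAAA matched 2 times at Hoxb8 and at neither of the others (13.6% of promoters hold it), CCAAT matched 1 time at Hoxb8 and 2 times at Hoxb1 (37.4%), GGGCGG 1 time at Hoxb8 (35.7%) and AGGTCA 1 time at Hoxb4 (16.3%). The motif TGATNNAT matched 1 time each at Hoxb8 and Hoxb1 (8.85% of promoters). A match describes these letters and is no binding site.

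Along the cluster the peaks followed each other from Hoxb13 to Hoxb1. The Hoxb13 peak (96161307 to 96223198, 61.891 kb) covered Hoxb13 and the long non-coding RNA genes Gm30134 and Gm11538, and reached the end of the span of Ttll6. An intergenic peak (96225690 to 96245263, 19.573 kb) overlapped no annotated gene. Within Gm53 lay the first Gm53 peak (96255112 to 96256472, 1360 bp), the second (96260288 to 96261197, 909 bp) and the third (96262540 to 96265181, 2641 bp), and the third also touched Gm51876 and the start of Mir196a-1. The Hoxb1-Hoxb9 peak (96267287 to 96387596, 120.309 kb) held all of Hoxb9, Hoxb8, Hoxb7, Hoxb6, Hoxb5, Hoxb4, Hoxb3, Hoxb2 and Hoxb1, with Hoxb5os, Hoxb3os and Mir10a. The 3 Gm53 peaks thus sat in the 44.089 kb between the Hoxb13 peak and the Hoxb1-Hoxb9 peak, and the third ended 6.149 kb before the span of Hoxb9. Exon, intron and UTR positions are not given, since the RefSeq table used holds gene spans.

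The authors' peak caller gave the Hoxb1-Hoxb9 peak a fold enrichment of 4.85, above that of every other consensus peak, and the Hoxb13 peak 3.45, which ranked 72. The intergenic peak had 2.10, and the first, the second and the third Gm53 peak 1.52, 1.45 and 1.63, beside a median of 1.53 over all peaks. The Gm53 peaks were thus at the level of the median consensus peak in this measure, which is 1 value per peak of the combined set.

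**Figure D1:**
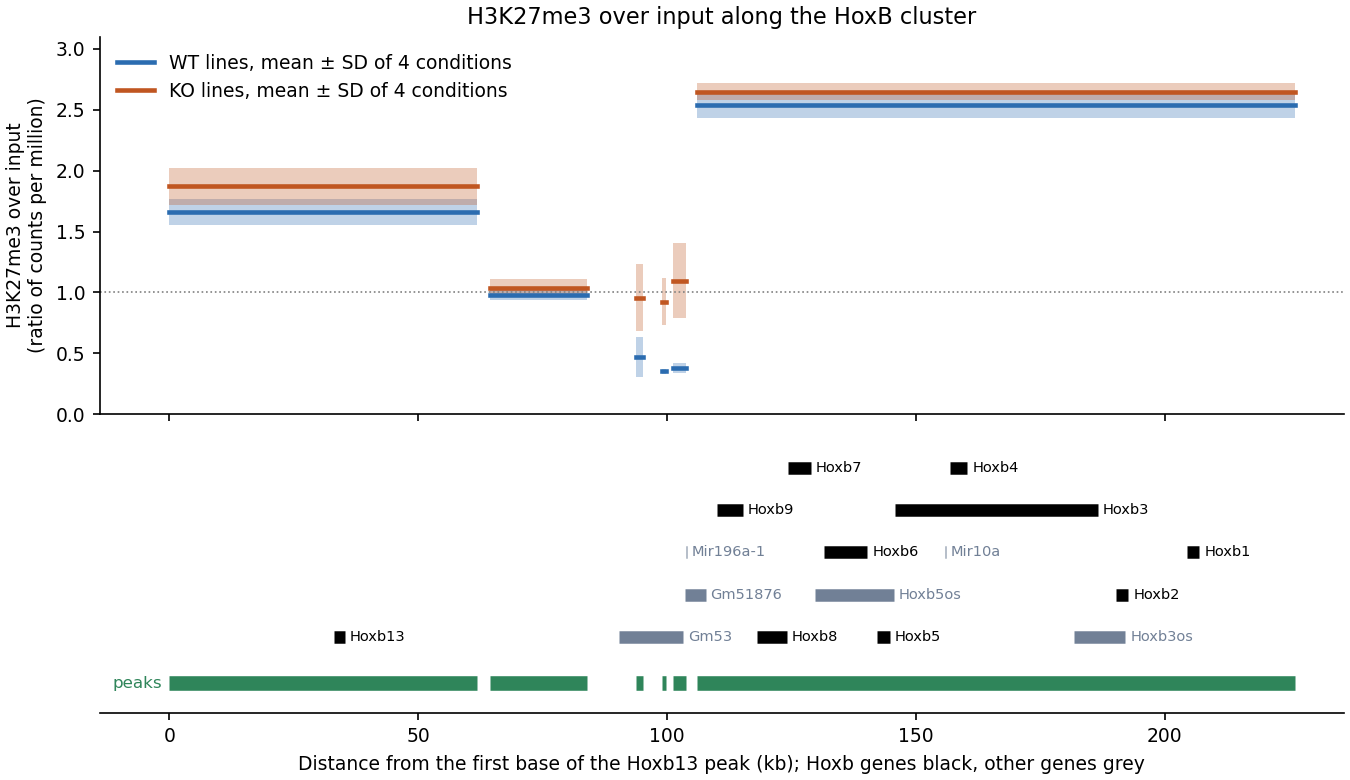
H3K27me3 over input (ratio of CPM) of each HoxB peak by its position in kb, as the mean (line) and SD (band) of 4 conditions in WT and in KO lines, above the spans of the genes and the peaks. The ratio stood above 1 at the Hoxb13 and Hoxb1-Hoxb9 peaks in both backgrounds, and at the 3 Gm53 peaks the WT mean was 0.354 to 0.469 and the KO mean 0.925 to 1.10.

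H3K27me3 was set against the matched input as the ratio of CPM (counts divided by the total over all peaks, times 1e6), so that a ratio of 1 is the average consensus peak and not the genomic background. At the Hoxb1-Hoxb9 peak the ratio was lowest in WT control at 48 h (2.38), had a median of 2.61 over the 8 conditions and was highest in the line labelled KO control at 0 h (2.71). The Hoxb13 peak ran from 1.54 over a median of 1.75 to 2.03, with its lowest and highest values in the same conditions. All 8 values at the Hoxb1-Hoxb9 peak lay above all 8 at the Hoxb13 peak, so that the block from Hoxb1 to Hoxb9 carried more of the mark per input than the region of Hoxb13. The intergenic peak between Hoxb13 and Gm53 stayed near the average consensus peak, from 0.915 over a median of 0.996 to 1.12. Means were 2.59 ± 0.104 at the Hoxb1-Hoxb9 peak, 1.77 ± 0.165 at the Hoxb13 peak and 1.01 ± 0.0624 at the intergenic peak (SD, n = 8).

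Set among the 101638 consensus peaks with at least 50 input counts in all, and with the libraries summed, 6 peaks had a higher ratio than the Hoxb1-Hoxb9 peak and 358 a higher one than the Hoxb13 peak. In CPM per kb, H3K27me3 at the Hoxb1-Hoxb9 peak ran from 5.05 in WT control at 48 h to 8.33 in the line labelled KO control at 0 h, and input from 2.11 to 3.07. Both assays were thus higher in the KO lines at this peak, while their ratio differed little.

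Against input, edgeR's quasi-likelihood test (adjusted over all peaks by Benjamini-Hochberg) called 5 of the 6 peaks, 2 higher and 3 lower, where 43.7% of all peaks were called (7.76% higher and 36% lower). The Hoxb1-Hoxb9 peak was higher by 1.37 ± 0.02 and the Hoxb13 peak by 0.82 ± 0.03 on the log2 scale (± SE of the fit, as for all log2 values here unless SD is written). The first, the second and the third Gm53 peak were lower by -0.55 ± 0.14, -0.63 ± 0.16 and -0.49 ± 0.11, and the intergenic peak was at 0.01 ± 0.04 and not called. The median of all peaks was -0.21. With TMM scaling, which lets most peaks be equal between the assays, the intergenic peak was called too, at 0.17 ± 0.04, and the 14226 higher and 10095 lower calls over all peaks replaced 7988 and 37015. A call below input in this scaling means less than the average consensus peak, and such a peak can still carry the mark.

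The Gm53 peaks stood apart from the rest of the cluster in the WT lines. At the third Gm53 peak the ratio was 0.361 and 0.330 in WT control at 0 and 48 h and 0.400 and 0.425 in WT transgene. In the line labelled KO control it was 1.53 and 1.11, and in KO transgene 0.888 and 0.856. All 4 KO values lay above all 4 WT values, and the KO values were near the average consensus peak. The counts behind these ratios were small: H3K27me3 counts were 41 and 35 in WT control, 33 and 42 in WT transgene, 88 and 105 in KO transgene, and 128 and 128 for the line labelled KO control, with 27 to 58 input counts per library. The 95% exact binomial interval of the ratio, which covers counting error only since PCR copies are not independent molecules, was 0.234 to 0.552 in WT control at 0 h and 0.606 to 1.22 in KO transgene at 48 h.

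At the second Gm53 peak, the shortest of the 6, the ratio was 0.356 and 0.367 in WT control, 0.370 and 0.324 in WT transgene, 0.652 and 1.07 in KO transgene, and 0.928 and 1.05 for the line labelled KO control, at 0 and 48 h. Here too the KO and WT values did not overlap. It rested on 11 to 17 H3K27me3 counts per WT library and 33 to 49 per KO library. At the first Gm53 peak the values were 0.361 and 0.715 in WT control, 0.398 and 0.404 in WT transgene, 0.690 and 0.815 in KO transgene, and 1.01 and 1.31 for the line labelled KO control. The WT control value at 48 h lay above the KO transgene value at 0 h, so that the groups overlapped at this peak. KO and WT ratios were apart without overlap at these 2 of the 6 peaks, against 1.85% of all peaks.

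With the 3 Gm53 peaks summed, the ratio was 0.395 ± 0.0301 in the WT conditions and 1.00 ± 0.207 in the KO conditions (SD, n = 4 each). In the pooled WT libraries, 1 of the 101638 peaks had a lower ratio than the second Gm53 peak, 3 a lower one than the third and 48 a lower one than the first. In the pooled KO libraries 64.2%, 84.7% and 67.9% of these peaks were lower than the second, the third and the first. The stretch of Gm53 between the marked blocks was thus among the lowest consensus peaks in WT lines, and above the median peak (0.861) in the pooled KO libraries. That pooled level rested on the line labelled KO control, whose summed ratio was 1.21 and 1.14, against 0.771 and 0.884 in KO transgene. In KO transgene alone, 22.4%, 39.6% and 50.3% of the peaks were lower than the first, the second and the third Gm53 peak, so that they were at or below the median peak there. The libraries used for peak calling were not given. If the Gm53 peaks entered the set through KO libraries, low WT ranks and a gap to KO would follow in part, so the ranks are a description.

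**Figure D2:**
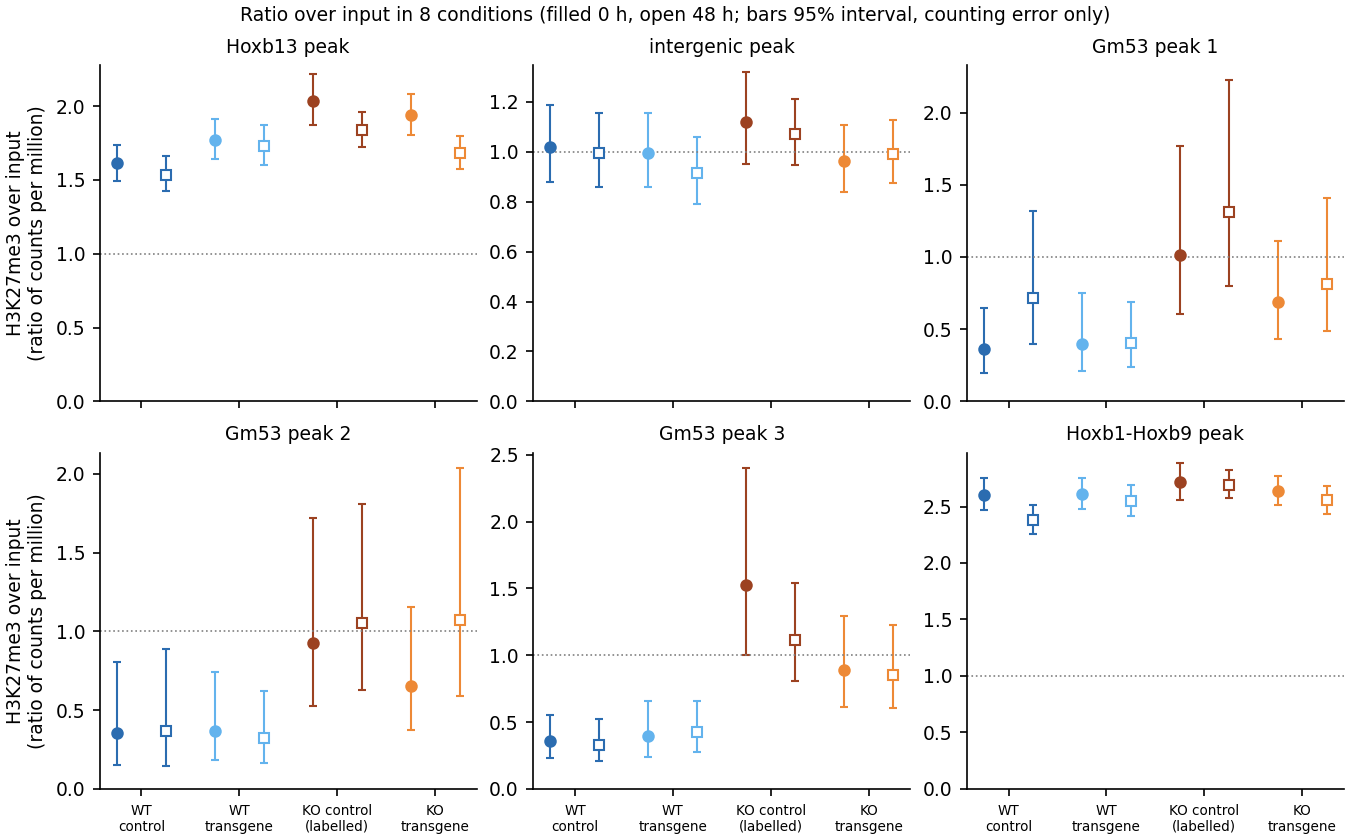
H3K27me3 over input (ratio of CPM) at each HoxB peak in 8 conditions, filled at 0 h and open at 48 h, with the 95% interval of counting error and a dotted line at 1, the average consensus peak. At the second and the third Gm53 peak the 4 WT points lie between 0.324 and 0.425 and the 4 KO points between 0.652 and 1.53.

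Background, that is KO against WT lines, was tested first in the H3K27me3 libraries alone. All 6 peaks were higher in KO lines (edgeR's quasi-likelihood test, adjusted p up to 1.44e-08), where 4.42% of all peaks were called (3.8% higher). Much of chromosome 11 shared this: 2920 of its 5802 peaks outside the cluster were called higher (median 0.34), against 985 of 97149 on other chromosomes. H3K27me3 CPM in all 4 KO libraries exceeded all 4 WT libraries at each of the 6 peaks, against 4.01% of all peaks. The difference was 0.57 ± 0.04 at the Hoxb13 peak, 0.47 ± 0.05 at the intergenic peak and 0.47 ± 0.04 at the Hoxb1-Hoxb9 peak. It was larger at Gm53, with 1.20 ± 0.17, 1.72 ± 0.21 and 1.72 ± 0.13 at the first, the second and the third peak, the last of which is a 3.29-fold difference. Without the line labelled KO control, a comparison added after seeing the data, all 6 were still called, with values of 0.37 ± 0.03 at the Hoxb13 peak, 0.31 ± 0.06 at the intergenic peak, 0.28 ± 0.01 at the Hoxb1-Hoxb9 peak and 0.89 ± 0.25, 1.09 ± 0.29 and 1.32 ± 0.19 at the 3 Gm53 peaks in order.

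Input over the same peaks was then compared, because the KO lines held more of their input on chromosome 11. Input was higher in KO lines at 3 of the 6 peaks (2.11% of 99000 peaks were called): by 0.41 ± 0.04 at the Hoxb13 peak, 0.40 ± 0.06 at the intergenic peak and 0.41 ± 0.03 at the Hoxb1-Hoxb9 peak. The median over the 5802 chromosome 11 peaks outside the cluster was 0.37, and 1992 of them were called higher. At the 3 Gm53 peaks input differed by 0.13 ± 0.20, 0.32 ± 0.23 and 0.20 ± 0.15 and was not called. Without the line labelled KO control, input was called at the Hoxb13 peak (0.33 ± 0.05) and the Hoxb1-Hoxb9 peak (0.27 ± 0.04), and the intergenic peak, at 0.28 ± 0.08, was not (adjusted p = 0.131, edgeR).

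The difference in H3K27me3 beyond that in input was tested in 1 model over both assays. It was called at 2 of the 6 peaks, both higher in KO lines, where 0.069% of all peaks were called (61 higher and 10 lower of 102907). The third Gm53 peak was higher by 1.50 ± 0.20 (95% interval 1.10 to 1.90; adjusted p = 9.06e-09, edgeR), a 2.82-fold difference, and 1 called peak of the whole set had a larger one. The second was higher by 1.35 ± 0.32 (adjusted p = 0.0426). The first was at 1.07 ± 0.27 and missed the threshold (adjusted p = 0.0695).

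At the peaks over the Hoxb genes themselves and at the intergenic peak the same difference was small. It was 0.18 ± 0.05 at the Hoxb13 peak (adjusted p = 0.117), 0.09 ± 0.08 at the intergenic peak (0.880) and 0.08 ± 0.04 at the Hoxb1-Hoxb9 peak (0.697; edgeR, 95% interval -0.00098 to 0.16). None of these was called. For the Hoxb1-Hoxb9 peak a gain of over 0.16 lay outside the interval, which holds mostly counting error and a spread shared over all peaks. In the same order, the differences were 0.04 ± 0.06, 0.04 ± 0.10 and 0.0057 ± 0.0348 without the line labelled KO control, and again not called.

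Both Gm53 calls depended on a single line, and that of the second Gm53 peak also on each single condition. Without the line labelled KO control neither Gm53 call held: the third Gm53 peak was at 1.07 ± 0.29 (adjusted p = 0.336) and the second at 1.26 ± 0.44 (0.567; edgeR), with the first at 0.94 ± 0.38 (0.698), and 3 peaks of the whole set were called. The third Gm53 peak was called with each of the 8 conditions left out in turn, at 1.35 to 1.69 and an adjusted p up to 1.02e-04, and the second in no such fit (1.23 to 1.53, adjusted p from 0.0621 to 0.299). The Hoxb13 peak was called, at 0.24 and 0.23, without WT transgene at 48 h and without KO transgene at 48 h (adjusted p = 0.0238 and 0.0248).

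**Figure D3:**
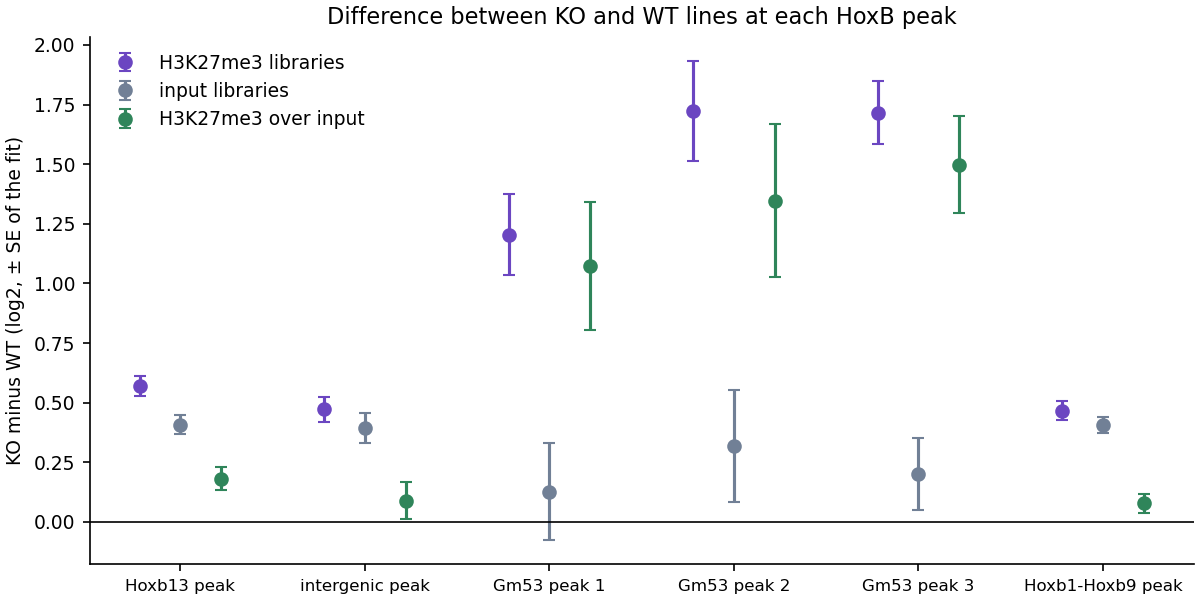
KO minus WT difference (log2, ± SE of the fit) at each HoxB peak in the H3K27me3 libraries, in the input libraries and in H3K27me3 over input. The H3K27me3 and input differences are near each other at the Hoxb13, intergenic and Hoxb1-Hoxb9 peaks, and at the 3 Gm53 peaks the difference over input is 1.07 to 1.50.

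The 6 pairs of lines were compared to see which lines the difference lay between, each adjusted over all peaks. The line labelled KO control was higher than WT control at 6 of 6 peaks (4.27% of all peaks called) and than WT transgene at 6 of 6 (5.12%). KO transgene was higher than WT control at 5 of 6 (1.35%), with the first Gm53 peak at 0.77 ± 0.24, and than WT transgene at 6 of 6 (1.74%). At the third Gm53 peak these 4 differences were 2.04 ± 0.17, 2.03 ± 0.17, 1.34 ± 0.19 and 1.32 ± 0.19. Each KO line was thus above each WT line there, and the 2 WT lines were level with each other (0.02 ± 0.24).

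The KO lines also differed from each other. KO transgene was lower than the line labelled KO control at 4 of 6 peaks (0.777%), by -0.28 ± 0.03 at the Hoxb13 peak, -0.29 ± 0.06 at the intergenic peak, -0.26 ± 0.01 at the Hoxb1-Hoxb9 peak and -0.70 ± 0.14 at the third Gm53 peak. Input in this pair was lower too, by -0.18 ± 0.05, -0.14 ± 0.08, -0.20 ± 0.04 and -0.16 ± 0.22, and was called at the Hoxb1-Hoxb9 peak (0.0505%). WT transgene was higher than WT control at 2 of 6 peaks (0.273%), by 0.12 ± 0.03 at the Hoxb13 peak and 0.12 ± 0.02 at the Hoxb1-Hoxb9 peak. Input there was at -0.06 ± 0.05 and 0.05 ± 0.04, with no call in the cluster (0.0141%). The second Gm53 peak was at 0.59 ± 0.38 in that pair, beside 0.64 ± 0.34 in input, so that WT transgene had more counts in both assays at this peak, though neither was called.

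The 72 peaks within 1 Mb on either side of the cluster were taken as its surroundings. In the H3K27me3 libraries 43 of them were higher in KO lines, with a median of 0.33, and in input 41, with a median of 0.40. Over input their median was -0.04, with values from -0.55 to 0.82, and 0 of the 72 were called. The 2 called Gm53 peaks, at 1.50 and 1.35, lay above all 72 neighbours, and so did the first at 1.07. A Gm53 peak was named in the choice with its higher KO level already known, so this rank is a description and no independent support. Of the 5802 other peaks of chromosome 11, 8 were called higher and 2 lower over input, with a median of -0.00058. The ratio over input among the 72 neighbours ran from 0.623 to 1.54, below the Hoxb13 and Hoxb1-Hoxb9 peaks (1.78 and 2.61 with all libraries pooled).

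**Figure D4:**
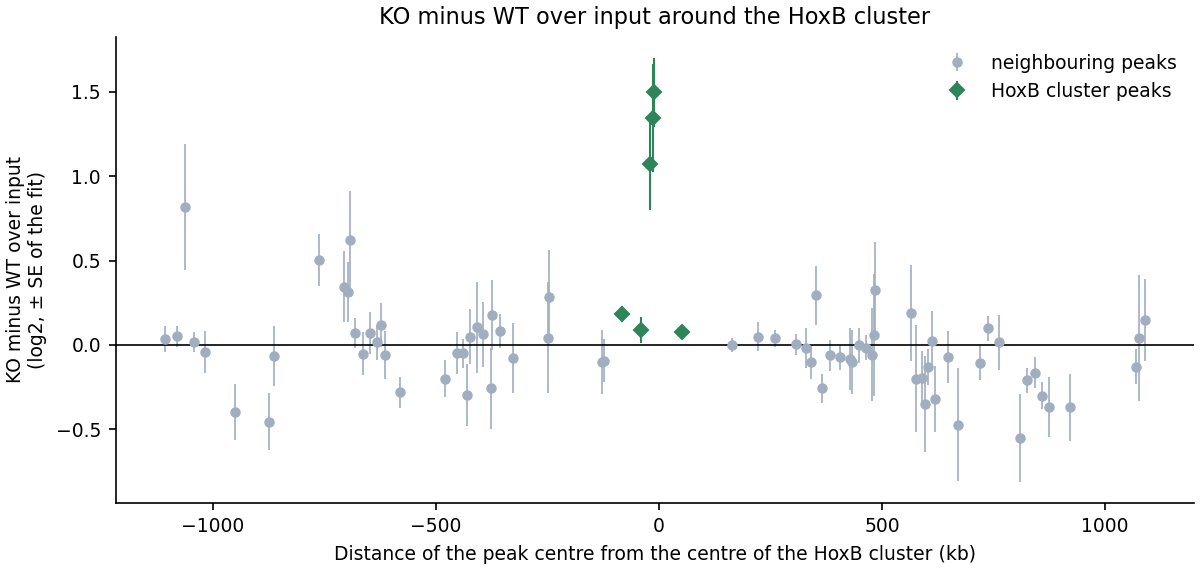
KO minus WT difference over input (log2, ± SE of the fit) of the 6 HoxB peaks and of 72 neighbouring peaks by distance in kb from the centre of the cluster. The neighbours lie between -0.55 and 0.82, and the 3 Gm53 peaks at 1.07, 1.35 and 1.50.

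Time was compared as 48 h against 0 h of doxycycline within each line. H3K27me3 fell at 2 of the 6 peaks (0.109% of all peaks were called, 0.102% lower), by 0.12 ± 0.02 at the Hoxb13 peak (adjusted p = 4.12e-06) and by 0.11 ± 0.01 at the Hoxb1-Hoxb9 peak (6.29e-22; edgeR) on the log2 scale. At the Hoxb1-Hoxb9 peak the ratio of 48 h to 0 h in CPM was 0.918 (WT control), 0.924 (WT transgene), 0.922 in the line labelled KO control and 0.948 in KO transgene. At the Hoxb13 peak it was 0.923, 0.907, 0.913 and 0.948 in the same order. Both peaks were thus lower in all 4 lines, a pattern that 6.87% of all peaks had.

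Input at these 2 peaks did not share a direction over the 4 lines. It was 0.970, 0.929, 1.01 and 1.09 times its 0 h level at the Hoxb13 peak and 1.00, 0.945, 0.929 and 0.978 at the Hoxb1-Hoxb9 peak, in the order used above. In the fit of the input libraries the change was 0.01 ± 0.04 and -0.05 ± 0.03, and 0% of 99000 peaks were called (4914 at an unadjusted p under 0.05). Over input the change with time was -0.12 ± 0.05 at the Hoxb13 peak (adjusted p = 0.969) and -0.06 ± 0.04 at the Hoxb1-Hoxb9 peak (0.990; edgeR), neither of which was called, where 0.00194% of all peaks were (5182 at an unadjusted p under 0.05). The calls of the H3K27me3 libraries thus did not hold with input in the model. At the Hoxb13 peak the estimate stayed at -0.12 while its SE rose from 0.02 to 0.05. At the Hoxb1-Hoxb9 peak the estimate went from -0.11 to -0.06 and its SE from 0.01 to 0.04. Both calls also ended when the line was left out of the fit (-0.12 ± 0.13 and -0.11 ± 0.11). DESeq2 called 1 of the 2, with the Hoxb13 peak at -0.12 ± 0.03 (adjusted p = 0.0726).

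The intergenic peak and the 3 Gm53 peaks were not called for time. The intergenic peak was at 0.05 ± 0.04, and the first, the second and the third Gm53 peak at -0.06 ± 0.16, -0.10 ± 0.19 and -0.09 ± 0.12. In these fits the prior degrees of freedom were 1856 with a common dispersion of 9.77e-05. The same dispersion was returned for the induction fit and for the input fit by line. It may thus be a lower bound of the method and not a measured spread. SE and p mostly follow read depth, and a small change at a deep peak passes more easily than the same change at the shallow Gm53 peaks.

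**Figure D5:**
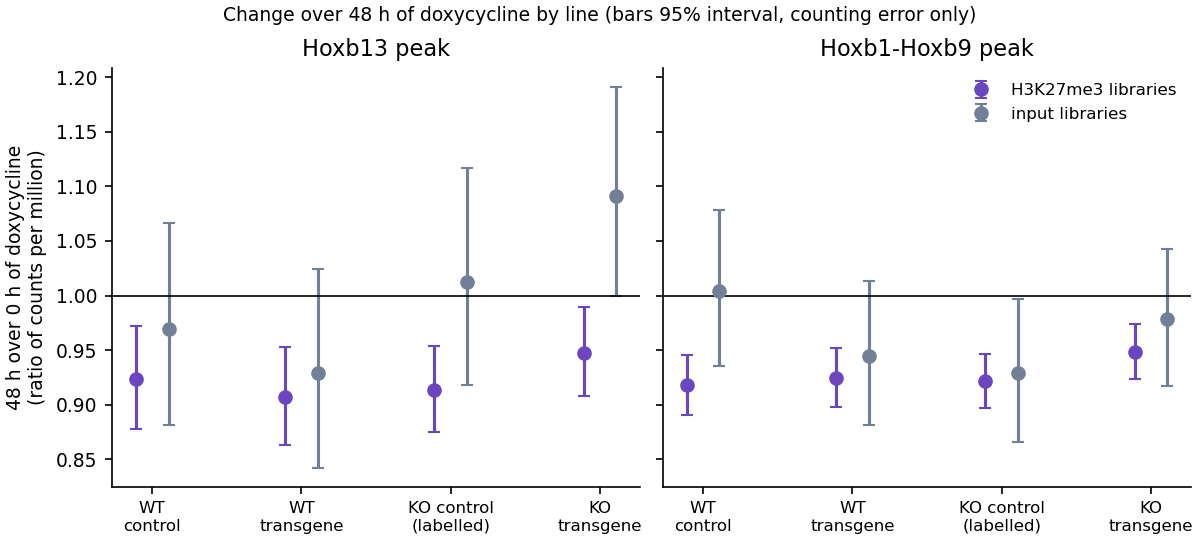
Ratio of 48 h to 0 h of doxycycline in CPM at the Hoxb13 and Hoxb1-Hoxb9 peaks by line, in H3K27me3 and input libraries, with the 95% interval of counting error and a line at 1. The H3K27me3 points lie between 0.907 and 0.948 in the 4 lines, and the input points between 0.929 and 1.09.

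Induction of Firre was assessed as the change over 48 h in the transgene lines minus that in the lines labelled as controls. None of the 6 peaks was called by edgeR's quasi-likelihood test, where 0.00583% of all peaks were (5055 at an unadjusted p under 0.05). The Hoxb13 peak was at 0.02 ± 0.04 (95% interval -0.05 to 0.09) and the Hoxb1-Hoxb9 peak at 0.03 ± 0.02 (-0.0045 to 0.06), so that changes over 0.09 and 0.06 at these peaks lay outside the intervals of the fit. Such intervals hold mostly counting error and a spread shared over all peaks, and larger changes between cultures are not excluded. The intervals were wide at Gm53: -0.59 to 0.69 at the first peak, -0.37 to 1.13 at the second and -0.06 to 0.89 at the third. The comparator in the KO background is the line labelled KO control, with its Firre input against the label. Its H3K27me3 counts over the Firre peak were 164 at 0 h and 177 at 48 h, where those of both transgene lines fell. With limma-voom the Hoxb1-Hoxb9 peak was called, at the same 0.03 ± 0.01 (adjusted p = 0.0326).

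Transgene lines against control lines, whatever the time, gave 0 of 6 calls in H3K27me3 by edgeR's quasi-likelihood test (0.0748% of all peaks were called, and 8019 had an unadjusted p under 0.05). The third Gm53 peak came nearest, at -0.52 ± 0.12 (adjusted p = 0.0577). This value rested on the line labelled KO control, without which it was 0.02 ± 0.23, and the Hoxb13 and Hoxb1-Hoxb9 peaks were then called higher at 0.12 ± 0.03 and 0.12 ± 0.02. Leaving out WT control at 48 h or WT transgene at 48 h brought the third Gm53 peak past the threshold (-0.59 ± 0.13 and -0.63 ± 0.13; adjusted p = 0.0244 and 0.00783, edgeR), and leaving out the line labelled KO control at 0 h took it to -0.34 ± 0.15 (0.637).

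The transgene difference depended on the background, tested as an interaction. In H3K27me3, 3 of 6 peaks were called, all lower in the KO background (0.441% of all peaks called): the Hoxb13 peak at -0.40 ± 0.04, the intergenic peak at -0.31 ± 0.08 and the Hoxb1-Hoxb9 peak at -0.38 ± 0.02. Of the 72 neighbours, 9 were called lower and 0 higher (median -0.17). Of the 5802 other chromosome 11 peaks, 187 were called lower and 0 higher (median -0.14), so that the direction was not particular to HoxB. Input in the same contrast was lower by -0.12 ± 0.07, -0.21 ± 0.12 and -0.24 ± 0.06 without a call (0.00505%), and over input none of the 6 was called (0.00389%; 5835 peaks at an unadjusted p under 0.05), with -0.28 ± 0.08, -0.11 ± 0.15 and -0.15 ± 0.05.

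As 1 region, the summed cluster gave a ratio over input of 2.07 and 1.93 in WT control, 2.14 and 2.06 in WT transgene, 2.21 and 2.08 in KO transgene, and 2.32 and 2.22 for the line labelled KO control, at 0 and 48 h. WT transgene at 0 h lay above KO transgene at 48 h, so that the backgrounds overlapped. The mean log2 ratio was 1.14 in KO and 1.04 in WT conditions, a difference of 0.11 (exact two-sided permutation test of 4 against 4 conditions, p = 0.0571, smallest possible 0.0286). Over the 2 KO and 2 WT lines the same exact permutation test gave p = 0.333, the smallest that 2 against 2 allows. The difference was 0.06 without the line labelled KO control (exact permutation p = 0.267, smallest possible 0.0667). The cluster was lower at 48 h in 4 of 4 lines, by a mean log2 ratio of -0.08 ± 0.02 (SD), with an exact sign permutation p of 0.125, again the smallest possible.

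The other Hox clusters, which pattern the same axis, carried similar amounts of the mark. HoxA (1 peak of 143.135 kb) had a mean ratio of 2.36 ± 0.194, HoxC (2 peaks) 2.03 ± 0.261 and HoxD (1 peak of 152.178 kb) 2.13 ± 0.130, beside 2.13 ± 0.122 for HoxB (SD, n = 8). The HoxB sum takes in the intergenic and Gm53 peaks, so its place depends on the window. The Hoxb1-Hoxb9 peak alone had a mean of 2.59 ± 0.104 (SD), above that of HoxA. Condition by condition, summed HoxB was below HoxA in 8 of 8, by a log2 ratio of -0.15 ± 0.05 (SD). Its difference was 0.08 ± 0.11 from HoxC, with HoxB higher in 6 of 8, and -0.00054 ± 0.0300 from HoxD, with HoxB higher in 4 of 8. Since the 8 conditions come from 4 lines, the test was made over line means, and HoxB was below HoxA in 4 of 4 lines (exact two-sided sign permutation p = 0.125, the smallest possible). The exact permutation test gave p = 0.375 against HoxC and 0.875 against HoxD, so that none of the 3 differences passed the threshold and 4 lines could not have reached it. HoxB had 6 peaks where these clusters had 1 or 2, and its gap at Gm53 lay between Hoxb13 and Hoxb9, whose gene spans are 74.72 kb apart.

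Between KO and WT lines over input, the peaks of HoxC were called higher, at 0.28 ± 0.06 and 0.27 ± 0.04 (adjusted p = 0.00733 and 4.40e-06, edgeR), and those of HoxA (0.13 ± 0.04) and HoxD (0.12 ± 0.04) were not. Without the line labelled KO control neither HoxC call held, at 0.25 ± 0.08 and 0.09 ± 0.05 (adjusted p = 0.463 and 0.810, edgeR), and HoxA was at -0.02 ± 0.04 and HoxD at 0.02 ± 0.04. The Hoxb1-Hoxb9 peak, at 0.08 ± 0.04, was nearest to the last 2, though the difference between clusters was not tested here. With time in the H3K27me3 libraries alone, where 0.109% of all peaks were called, the HoxA peak was at -0.13 ± 0.01, the longer HoxC peak at -0.10 ± 0.01 and the HoxD peak at -0.15 ± 0.01, all called as at Hoxb13 and Hoxb1-Hoxb9, and the shorter HoxC peak was at -0.03 ± 0.03 and not called. As at the HoxB peaks, none of the 4 was called for time over input (adjusted p from 0.938 to 0.990, edgeR).

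The peaks whose ratio over input went most alike with the cluster's were sought over the 8 conditions among 51476 peaks outside it, each at or above the median H3K27me3 count. The second Gm53 peak had the largest KO minus WT difference in H3K27me3 (1.72 ± 0.21), though level with the third (1.72 ± 0.13). It held 11 to 49 H3K27me3 and 13 to 25 input counts per library, so its ratios carry much counting error. For it, the most alike peaks included one over Ptpn9, a tyrosine phosphatase gene (Pearson's r = 0.971). Others were one over Gm31954 on chromosome 11 (0.968) and one touching Scrn1 and Wipf3 (0.964). For the Hoxb1-Hoxb9 peak they were peaks at Eif4e3, which encodes a cap-binding protein (0.991), Vwa8 with Gm4632 (0.977), Tifa (0.975), Stum (0.972) and Creb5 with Gm33348 (0.967). These correlations are a description over 8 conditions in 4 lines that share their libraries, and 112 and 79 of the candidates had r above 0.9.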

How the data were processed

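Per the labels' protocols, formaldehyde-fixed chromatin was sonicated and H3K27me3-bound and input DNA was sequenced. The deposited table gave raw read counts per consensus peak and library. The authors' peak list gave per peak a score, a fold (ratio) over background and a −log10 q of the peak caller. The submitters' processing notes name featureCounts, DESeq2 1.26.0, MACS2 2.2.71, BWA 0.7.17-r1188 and mm10, with no steps or roles. The choice of libraries for peak calling was not given in the sources used here. Peaks strong in some libraries may thus be favoured, and starts are printed as deposited.

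Samples were grouped by the title, genotype, antibody and time labels. Tests were edgeR 4.0.16 quasi-likelihood F tests (R 4.3.3, filterByExpr, TMM; total counts for H3K27me3 against input), fitted over all 102957 peaks with Benjamini-Hochberg adjustment at 0.05. Line was the block for time, and both assays were put in 1 model for differences over input. The SE is the log2 difference over the root of F. Ratios carry exact binomial 95% intervals (scipy 1.17.1). Scripts were tested on simulated data. Depth was 10380781 to 14787938 counts in H3K27me3 and 3340654 to 6244333 in input, and the Gm53 peaks held 11 to 128 and 13 to 58 counts per library. Libraries of a line at its 2 times differed only slightly more than counting noise gives (chi-square over degrees of freedom 1.04 to 1.12 in H3K27me3, 1.00 to 1.01 in input) and were kept as separate conditions. Alternatives were other scalings, DESeq2 1.42.0, limma-voom (limma 3.58.1), input as an offset, filters and each condition left out. Added after seeing the data were the fits without the line labelled KO control, the comparison with the other Hox clusters and its test over line means.

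All 6 peaks of the rule are named; of other Hox clusters the listed Hox genes with 2 kb on either side were summed, neighbours were all peaks within 1 Mb, and the most alike peaks were the 5 with the highest Pearson's r, of which those with an overlapping gene are named. The members, gene lists and tests were chosen with earlier results of these data known.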

Additional observations from a re-analysis of the deposited data

Results flagged for a closer look

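At the first Gm53 peak, the ratio of H3K27me3 over input in WT control at 48 h was 0.715, far from the other 3 WT conditions (0.361, 0.398 and 0.404). It rested on 33 H3K27me3 and 20 input counts, with a 95% exact binomial interval of 0.398 to 1.32 that takes in 1 of the other WT values (0.404). Input of the Hoxb1-Hoxb9 peak in WT transgene at 0 h was 2.25 CPM per kb (counts scaled to the library total), apart from 2.11, 2.12 and 2.12 in the other WT libraries. These were 2 of 36 groups of 4 examined in this way, and chance flags about 1 in 20.

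The H3K27me3 difference between lines labelled transgene and control went apart between the WT and KO lines by a test of the interaction. The interaction was -0.40 for the Hoxb13 peak, -0.31 for the intergenic peak and -0.38 for the Hoxb1-Hoxb9 peak (adjusted p = 1.49e-19, 0.0416 and 7.77e-64, edgeR). Each combination of labels is a single line, so transgene and clone cannot be told apart. KO transgene was below the line labelled KO control, with its Firre input against the label, and chromosome 11 took 9.97% and 11.1% of input in these lines. None of the 3 HoxB peaks was called over input, and the part of that input difference was not tested further. In the H3K27me3 interaction, 187 of the 5802 other chromosome 11 peaks were called lower and 0 higher (median -0.14).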

How the results depend on the processing

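Replicate numbers pair no libraries, since all groups carry number 1. Libraries were matched instead by line (the block for time) and by condition. Of the 6 peaks, all were called for background under every setting but input as an offset (1, the third Gm53 peak; 43 peaks higher and 4 lower over all), DESeq2 (4, the first and second Gm53 peaks having no adjusted p) and a mean of at least 50 counts, which 4 of the 6 passed and all 4 were called. Against input DESeq2 called 4 in place of 5, with the third Gm53 peak at -0.64 (adjusted p = 0.0780), and TMM 6. For time, calls went from 2 to 1 with DESeq2 and to 0 with input as an offset or with no line block, where 2 and 0 of all peaks were called (5332 and 4046 at an unadjusted p under 0.05); leaving out a condition kept 2. Induction went from 0 to 1 with limma-voom. Transgene calls went from 0 to 1 with TMM factors from peaks off chromosome 11 and to 2 without the line labelled KO control, and ranged from 0 to 1 with a condition left out. Calls over input between KO and WT went from 2 to 0 without the line labelled KO control (chosen after seeing the data), ranged from 1 to 2 with a condition left out, and were 3 with limma-voom. The pair WT transgene minus WT control went from 2 to 1 with total counts. The cause was not tested.

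Single values changed sign as follows. Without the line labelled KO control, enrichment of the intergenic peak was -0.0300, time was 0.12, 0.0442 and 0.0342 at the first, the second and the third Gm53 peak, transgene was 0.12 at Hoxb13, 0.0217 at the intergenic peak, 0.60 and 0.0182 at the second and the third Gm53 peak and 0.12 at Hoxb1-Hoxb9, and input KO minus WT was -0.16 at the second Gm53 peak. With input as an offset, time was -0.0495 at the intergenic peak and 0.39 and 0.22 at the first and second Gm53 peaks, induction -0.00983 at Hoxb13 and -0.49 at the first Gm53 peak, and transgene 0.0319 at Hoxb13 and 0.000908 at Hoxb1-Hoxb9. With a condition left out, ranges that crossed 0 were -0.00796 to 0.0275 for enrichment of the intergenic peak; for time -0.00440 to 0.0784 at the intergenic peak and -0.17 to 0.12, -0.21 to 0.0445 and -0.16 to 0.0342 at the first, the second and the third Gm53 peak; for induction -0.0176 to 0.0527 at Hoxb13, -0.0708 to 0.17 at the intergenic peak and -0.52 to 0.52 at the first Gm53 peak; and for time over input -0.28 to 0.0628 at the third Gm53 peak. Apart from transgene at Hoxb13 and Hoxb1-Hoxb9 without the line labelled KO control, none of these values passed the threshold. Depth limits the Gm53 peaks: with 11 to 128 H3K27me3 and 13 to 58 input counts in a library, their intervals span more than the differences tested for time and induction.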
